A study of Bos taurus with 16 samples.

Results

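The angiogenic and vascular growth factors measured here were 10 genes: CTGF, CYR61, ESM1, PDGFB, PDGFA, VEGFA, VEGFB, FGF1, FGF2 and HBEGF. They were picked by name from the 20602 gene names on a bovine array, and each had 1 probe, printed on 2 spots. CTGF, CYR61, PDGFB, VEGFB, FGF1 and FGF2 were found by the gene name of the probe, and ESM1, PDGFA and HBEGF by the symbol in its description. The probe for VEGFA carries the older name VEGF and was matched through its accession, NM_174216. RNA came from CD14+ cells of 4 pregnant cows, animal 1 at day 164 of pregnancy, animal 2 at day 239, animal 3 at day 242 and animal 4 at day 248. CD14 is a coreceptor for bacterial lipopolysaccharide that is carried by monocytes and macrophages. Uterus and cardiac blood were taken at an abattoir, interplacentomal endometrium was dispersed with enzyme, and CD14+ cells of endometrium and of blood mononuclear cells were sorted by flow cytometry. All cows were pregnant, and no group stands for the endometrium of a cow that is not pregnant. The labels give the sorted endometrial cells a purity of 90 to 95% and the sorted blood cells one of 98 to 99%. Each of 8 arrays set the endometrial cells of a cow in 1 dye against its blood cells in the other, 2 arrays to a cow, with the dyes swapped between the 2 in 3 of the 4 cows. There were thus 16 samples. The 2 technical replicates of a cow were averaged, so that n is 4 animals, except in the alternative fits to the 8 arrays.

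Growth of vessels is steered by a small number of secreted protein families. Vascular endothelial growth factors (VEGFA, VEGFB) act on receptor tyrosine kinases of endothelial cells, and platelet-derived growth factors (PDGFA, PDGFB) act on mural and mesenchymal cells around them. Fibroblast growth factors (FGF1, FGF2) and heparin-binding EGF-like growth factor (HBEGF) bind heparan sulfate and drive proliferation in many cell types. CTGF and CYR61, also called CCN2 and CCN1, are matricellular proteins of the CCN family that modulate adhesion and angiogenesis, and both genes are well-known targets of the transcriptional coactivator YAP and of serum response factor. ESM1, or endocan, is a proteoglycan made mainly by activated endothelium, most of all by the tip cells of sprouts. Macrophages in growing and healing tissues are known as a source of several of these factors. The placenta of the cow needs a rich maternal and fetal vasculature, and macrophages are abundant in the endometrium between placentomes.

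The level of each gene rests on 1 probe of 60 bases, and a stretch of 30 bases is shown for 6 of the probes so that a reader can see what was measured. Capitals mark ATTTA, the core of the AU-rich elements known from short-lived messages of growth factor and immediate early genes. The first 4 stretches hold it. The PDGFB and HBEGF probes lack it, and their stretches are the middle of the probe.
CTGF, bases 6 to 35 of the probe: gttttttggacagATTTAtttgttgagagt
CYR61, bases 15 to 44: actgaatgtttttATTTAtcaaaatgtagc
ESM1, bases 27 to 56: gagaccaagtgtgATTTAgggtgggtccac
FGF1, bases 31 to 60: gaagtgagtgattccagctatccacATTTA
PDGFB, bases 16 to 45: ctgtctcccaaatctgctttcttcagtttg
HBEGF, bases 16 to 45: gaactgttacaaacctgtatttccaaactt
Searched over the whole 60 bases as the scanner files print them, ATTTA occurred in 4 of the 10 growth factor probes and in 7.84% of the 16643 tested probes of this length. On the other strand (TAAAT) it occurred in 1 of the 10, VEGFA, and in 10.97% of those probes. These are matches of letters in the probe only. The orientation of a probe to its message, and its chromosomal position, were not analysed here, since the gene table at hand is of assembly ARS-UCD2.0 and the array was designed on an earlier one. G and C made up 35 to 45% of the growth factor probes against a median of 43.3% over the tested probes.

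Levels are given as normalized log2 intensity, and a difference of 1 is 2-fold. Dim probes bottom out near 6 on this scale, and levels of different probes are not comparable with each other. The log2 ratio is the level in endometrium minus that in blood within an animal, tested against 0 with limma over the 4 animals. A probe entered the test when 4 or more of the 8 channels of endometrium, or 4 or more of those of blood, were well above background. It was called when the fold change exceeded 2 and the Benjamini-Hochberg adjusted p did not exceed 0.05. FGF2 did not reach the tested set. None of the other 9 growth factors was called (0 of 9), beside 11 of 16653 tested probes, or 0.0661%. With the methods' analysis of variance on the same values 0 of 9 were called as well. With the same limits set on the p before adjustment, 4 of the 9 were higher in endometrium (CTGF, CYR61, ESM1 and PDGFB), against 5.27% of all tested probes. HBEGF alone was higher in blood by that rule, against 5.11% of all tested probes. These p-values are from limma, which pools the spread over probes. The analysis of variance gave a larger SE for each of these genes. It was 1.62 against 1.22 for CTGF, 1.92 against 1.44 for CYR61 and 0.57 against 0.47 for ESM1. For PDGFB it was 0.63 against 0.51, and for HBEGF 0.50 against 0.42. Unadjusted calls with those larger errors were not counted. The median log2 ratio was 0.28 over the 9 growth factors and -0.02 over all tested probes.

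**Figure D1:**
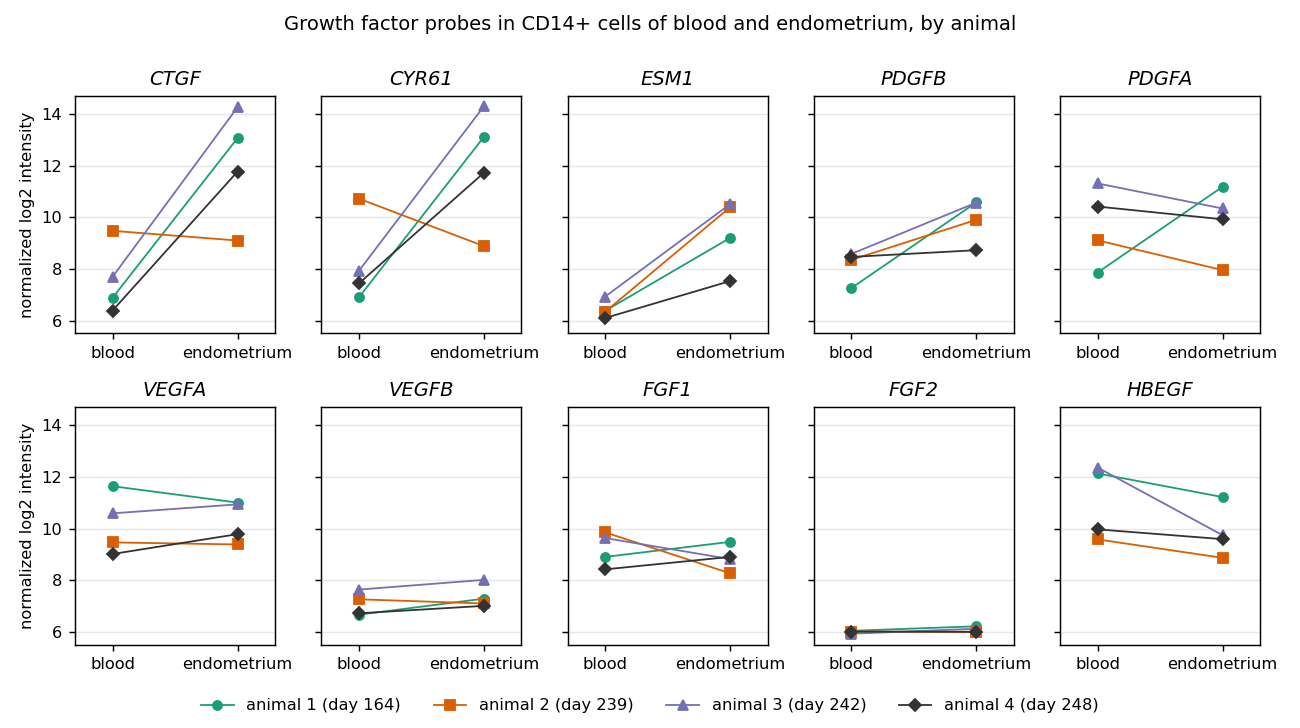
Normalized log2 intensity (vertical axis) of the 10 growth factor probes in CD14+ cells of blood and endometrium, with 1 line for each of the 4 animals, each point the mean of 2 technical replicates. For ESM1 and PDGFB every endometrial level lay above every blood level, and for CTGF and CYR61 the line of animal 2 slopes down from blood to endometrium and those of the other 3 animals slope up.

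Of the 9 tested growth factors, the CCN family genes CTGF and CYR61 had the highest mean ratios and the widest spread between animals. CTGF, which supports matrix deposition and the adhesion of vascular cells, had levels of 13.07, 9.10, 14.26 and 11.77 in the endometrial cells of animals 1 to 4. In blood cells of the same animals its levels were 6.89, 9.48, 7.70 and 6.40. Animal 2 had the lowest endometrial level and the highest blood level, so that the ranges of the tissues overlapped. The other 3 animals were apart by 41.5-fold to 94.3-fold. The log2 ratios were 6.18, -0.38, 6.56 and 5.37, with a mean of 4.43 ± 1.22 (SE from limma, n = 4 animals). That is 21.6-fold, with a 95% interval of 2.57-fold to 182-fold and an adjusted p of 0.262 in limma. By mean log2 ratio CTGF had rank 11 of the 16653 tested probes, counted from the highest in endometrium.

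CYR61, which binds integrins and promotes angiogenesis, followed CTGF closely. Its levels were 13.11, 8.89, 14.29 and 11.72 in endometrial cells of animals 1 to 4, and 6.90, 10.73, 7.93 and 7.44 in their blood cells. Again animal 2 stood apart in both tissues, and its blood level was again above its endometrial one. The log2 ratios were 6.20, -1.84, 6.36 and 4.28, with a mean of 3.75 ± 1.44 (SE from limma, n = 4 animals), or 13.5-fold with a 95% interval of 1.09-fold to 166-fold. The adjusted p in limma was 0.318. Without animal 2 the mean log2 ratio was 5.61 for CYR61 and 6.04 for CTGF, at adjusted p of 0.138 and 0.0958 in limma, and neither was called.

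Over the 8 tissue means of the 4 animals, the levels of CTGF and CYR61 correlated at a Pearson r of 0.983, and of all other tested probes CYR61 was the one most like CTGF (rank 1). This correlation is a description over 8 values that share arrays in pairs and differ in tissue. The 3 named genes outside the growth factors with the pattern most like CTGF were TM4SF1, a membrane protein of endothelium and many epithelia, at 0.969, CRYAB, a small heat shock protein, at 0.967, and CLU, or clusterin, at 0.964. For CYR61, NRTN had an r of 0.950 and MRPL27 one of 0.939. The stroma markers also differed between animals. Of 15 probes of the fibroblast and stroma list, 14 were tested, and their median log2 ratio by animal was 5.04, -0.04, 1.84 and 0.79. The summed linear level of the list was 138337, 1434, 7496 and 2781 in endometrial cells of animals 1 to 4 and 1369 to 3915 in blood cells. COL1A1, the main collagen of fibroblasts, had log2 ratios of 5.66, -0.06, 2.04 and 2.40, and 1 of 2 probes of COL1A2 had ratios of 5.82, 0.25, 0.90 and 2.07 while the other reached no channel well above background. Both the stroma list and the 2 CCN genes were thus lowest in animal 2, but animals 1 and 3 had similar CTGF ratios and very different stroma sums. The part of stromal cells in the CTGF and CYR61 levels was not tested. Fewer cells of a type and less RNA per cell cannot be told apart in sorted bulk samples such as these.

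The third CCN gene above the threshold for testing, NOV (CCN3), had log2 ratios of 6.30, -0.31, 2.91 and 0.64, with a mean of 2.38 ± 1.11 (SE) and an adjusted p of 0.373 in limma. WISP1 and WISP3 were each well above background in at most 2 of the 8 channels of a tissue and were not tested. In the list of other YAP and serum response factor targets, 0 of 10 tested probes were called, and the median log2 ratio was 0.22. By animal this median was 0.91, -0.13, 0.57 and 0.17. Its highest member, AMOTL1, an angiomotin-like scaffold of cell junctions, had a ratio above 0 in 4 of 4 animals and a mean log2 ratio of 3.02 ± 0.28 (SE) and an adjusted p of 0.070 in limma. AMOTL1 had a ratio of 2.62 in animal 2, where CTGF and CYR61 were higher in blood. AMOTL2, its paralog, had -0.08 in animal 2 and 2.46 in animal 1. CRIM1 had 2 probes that disagreed, with mean log2 ratios of 1.83 and -0.53.

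**Figure D2:**
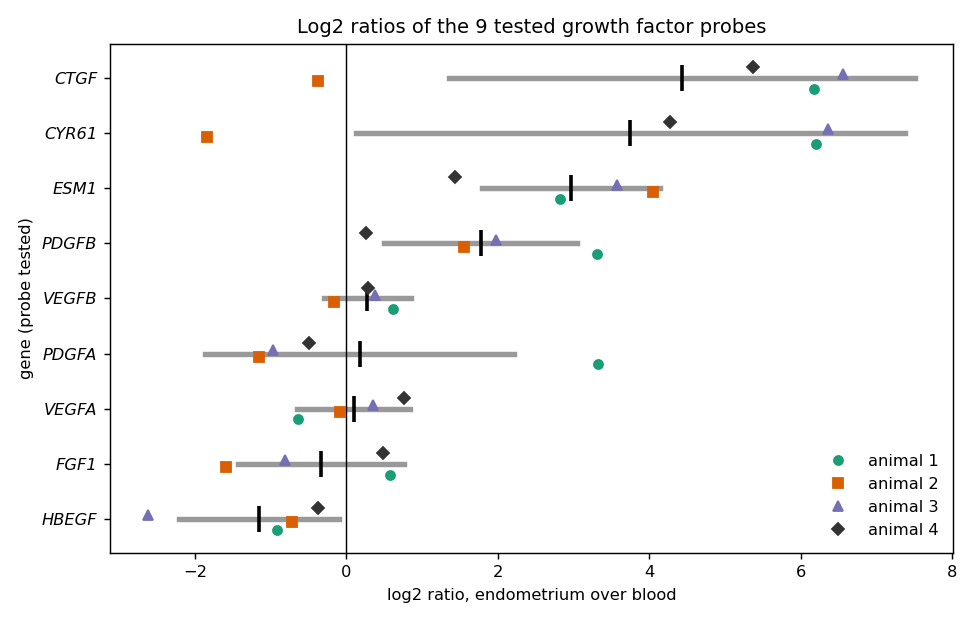
Log2 ratio of endometrium over blood (horizontal axis) for the 9 tested growth factor probes, with a point for each of the 4 animals, a black tick at the mean and a grey bar for the 95% interval from limma. The intervals of CTGF, CYR61, ESM1 and PDGFB lay above 0 and that of HBEGF lay below 0, before adjustment over the 16653 tested probes, and the other 4 intervals held 0.

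ESM1, the endocan of activated endothelium, had a ratio above 0 in every animal. Its levels in endometrial cells of animals 1 to 4 were 9.20, 10.39, 10.51 and 7.54. Blood levels were 6.38, 6.35, 6.93 and 6.11, close to the bottom of the scale, and the probe was well above background in 5 of the 8 blood channels and in 8 of the 8 endometrial ones. Every endometrial level was above every blood level, as for 2.41% of the tested probes. The log2 ratios of 2.82, 4.04, 3.58 and 1.43 gave a mean of 2.97 ± 0.47 (SE from limma, n = 4 animals), or 7.83-fold with a 95% interval of 3.46-fold to 17.7-fold. ESM1 had the lowest adjusted p of the 9 growth factors, 0.207 in limma. In contrast to CTGF, the ratio of ESM1 was highest in animal 2.

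Between the intensities and the authors' own log2 values, ESM1 moved more than the other 8 tested growth factors. The authors' values follow the scanner's processed signal, which carries no added offset. With them the mean log2 ratio was 5.55 ± 0.50 (SE) with an adjusted p of 0.00733 in limma, and ESM1 was called. That was 1 of 9 growth factors, beside 1.35% of the tested probes called with those values. The ratios in animals 1 to 4 were then 5.11, 6.49, 5.90 and 4.71. When the 8 arrays were entered together as separate values, with a term for dye and a random block for animal, ESM1 was called. Its log2 ratio was then 3.02, at an adjusted p of 0.0103 in limma. The 2 arrays of a cow are technical replicates, so this fit counts more values than there are animals. CTGF and PDGFB were called by the same fit, at adjusted p of 0.0336 and 0.0367 in limma, beside 4.76% of all tested probes.

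Endothelial markers were not uniformly higher with ESM1. All 16 probes of the endothelium list were tested and 0 were called, and the median log2 ratio by animal was 0.66, -0.28, 1.01 and -0.01. The summed linear level of the list was 4311, 2455, 11101 and 2675 in endometrial cells of animals 1 to 4, and 2218 to 3221 in blood cells. Von Willebrand factor, VWF, the storage protein of endothelial cells and platelets, had log2 ratios of 1.72, 1.20, 3.87 and 0.09. CDH5, the cadherin of endothelial junctions, was well above background in 6 of the 8 endometrial and 0 of the 8 blood channels, so that no ratio is given for it. PECAM1, which leukocytes also carry, had ratios of 0.76, -0.38, 0.04 and 0.73. In animal 2, ESM1 had its highest ratio and the median of the endothelial markers its lowest. Their part in the ESM1 level was not tested.

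Some trophoblast probes had a pattern like that of ESM1. The gene whose pattern over the 8 tissue means was most like that of ESM1 was PAG3, a pregnancy-associated glycoprotein of trophoblast, at a Pearson r of 0.986. HDHD3 came next at 0.982. PAG3 was well above background in 8 of the 8 endometrial and 0 of the 8 blood channels. Of 15 probes of the trophoblast list 13 were tested and 5 were called, those of PAG4, CSH1, PRP1 and PRP6 and a probe of PAG7, all higher in endometrium. Another probe of PAG7 was tested and not called, with log2 ratios of -0.19, 3.64, 3.41 and 2.65 and an adjusted p of 0.263 in limma. The probe listed under the symbol PAG1 went the other way, with log2 ratios of -1.71, -2.71, -1.37 and 0.022. Its adjusted p was 0.276 in limma, so it was not called. It was matched by symbol, carries another gene name on the array, and was well above background in 8 of the 8 blood channels. Whether it measures a pregnancy-associated glycoprotein was not tested, and the list values below include it. CSH1, placental lactogen, had a log2 ratio of 3.93 ± 0.24 (SE) and an adjusted p of 0.026 in limma. The median log2 ratio of the list was 2.66, 3.18, 3.41 and 2.65 in animals 1 to 4, and its summed linear level was 16726 to 52648 in endometrial cells and 1927 to 3683 in blood cells. PAG17 and GCM1 each had a probe with no channel well above background. The epithelium list had medians of 2.54, 2.01, 4.11 and 1.44, with 0 of 11 tested probes called. Its highest gene was SERPINA14, the uterine milk protein, with a log2 ratio of 6.10 ± 0.51 (SE) and an adjusted p of 0.059 in limma. Whether RNA of trophoblast or epithelium contributed to the ESM1 level was not tested.

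**Figure D3:**
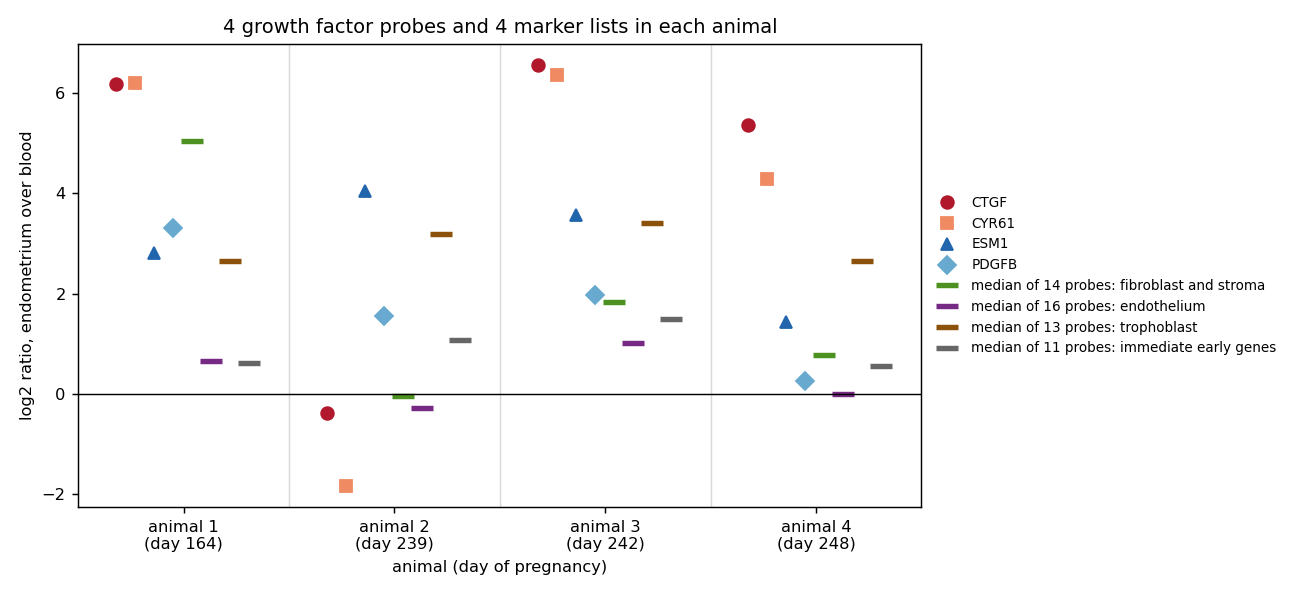
Log2 ratio of endometrium over blood (vertical axis) in each of the 4 animals for the CTGF, CYR61, ESM1 and PDGFB probes (symbols) and the median of 4 marker lists (short bars). In animal 2 CTGF was at -0.38 and CYR61 at -1.84 while ESM1 was at 4.04 and the trophoblast median at 3.18.

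Of the platelet-derived growth factors, PDGFB had a ratio above 0 in 4 of 4 animals and PDGFA in 1 of 4. PDGFB, the ligand that recruits pericytes to new vessels, had levels of 10.58, 9.91, 10.57 and 8.73 in endometrial cells and of 7.26, 8.36, 8.59 and 8.47 in blood cells of animals 1 to 4. The ranges did not overlap, but the gap between the lowest endometrial and the highest blood level was small and came from animals 4 and 3. The log2 ratios were 3.31, 1.55, 1.98 and 0.26, with a mean of 1.78 ± 0.51 (SE from limma, n = 4 animals). That is 3.43-fold, with a 95% interval of 1.42-fold to 8.30-fold and an adjusted p of 0.262 in limma. A ratio above 0 in 4 of 4 animals was found for 2 of the 9 growth factors, ESM1 and PDGFB, against 10.2% of the tested probes. Platelets store this factor, and 3 of the 5 probes of the platelet list were tested, with 0 called. Their median log2 ratio was -0.67, -2.79, -0.39 and -0.19, and the summed linear level of the list was 448 to 1016 in endometrial and 607 to 2643 in blood cells. PF4, a defining platelet chemokine, was not tested, with 0 of the 8 endometrial and 3 of the 8 blood channels well above background. In endometrial cells PPBP was well above background in 6 of the 8 channels and TUBB1 in 4. ITGA2B had a probe at 8 of the 8 endometrial channels and another at 0. The part of platelets in the PDGFB level was not tested. The 3 genes most like PDGFB over the 8 tissue means were MXD3, a repressor of the MAX network, at a Pearson r of 0.973, CHMP4A, a subunit of the ESCRT machinery, at 0.963 and JPT2 at 0.955.

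PDGFA, which acts on mesenchymal cells through PDGFRA, differed in sign between animals. Levels were 11.18, 7.96, 10.34 and 9.92 in endometrial cells and 7.87, 9.11, 11.31 and 10.42 in blood cells of animals 1 to 4. Animal 1 had the highest endometrial and the lowest blood level, and in the other 3 animals blood was higher. The log2 ratios of 3.32, -1.15, -0.97 and -0.49 averaged 0.18 ± 0.81 (SE), with a 95% interval of -1.86 to 2.21 and an adjusted p of 0.950 in limma. Without animal 1 the mean was -0.87. Animal 1 was also the cow at the earliest day of pregnancy and the one with the highest stroma sum, and with 1 such cow these cannot be told apart. The receptor PDGFRA had log2 ratios of 4.59, -0.01, 2.12 and -0.12, with a mean of 1.64 ± 0.85 (SE) and an adjusted p of 0.408 in limma. Likeness to PDGFA over the 8 tissue means was weaker than for the genes above, with ZNF397 at a Pearson r of 0.901, EBF1, a transcription factor of B and stromal cells, at 0.900 and FNTA at 0.888.

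HBEGF, a membrane-anchored ligand of the EGF receptor that macrophages are known to make, was the only growth factor lower in endometrium in 4 of 4 animals, a pattern of 14.7% of the tested probes. Levels were 11.22, 8.87, 9.75 and 9.59 in endometrial cells and 12.13, 9.58, 12.36 and 9.97 in blood cells of animals 1 to 4. Blood was above endometrium within each cow, but the ranges overlapped, since animals 1 and 3 had much higher blood levels than animals 2 and 4. The log2 ratios of -0.91, -0.71, -2.62 and -0.38 gave a mean of -1.15 ± 0.42 (SE from limma, n = 4 animals), which is 2.23-fold higher in blood, with an adjusted p of 0.302. Its 95% interval on the log2 scale was -2.21 to -0.10. Animal 3 set much of the size, and without it the mean was -0.67. The gene most like HBEGF over the 8 tissue means was GPR137B, at a Pearson r of 0.970, followed by ITPKC, a kinase of inositol phosphates, at 0.955 and BHLHE41, a circadian repressor, at 0.949.

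CD14 itself was well above background in 8 of the 8 channels of either tissue, with log2 ratios of -2.08, 0.11, 0.51 and 0.13. In the monocyte and macrophage list 0 of 9 tested probes were called, and the median log2 ratio by animal was -0.02, 0.093, 2.48 and 2.30. The summed linear level of its 11 probes was 9802 to 101740 in endometrial and 3000 to 105143 in blood cells, highest in animal 1 in both. CSF1R, the receptor for colony-stimulating factor 1, was higher in endometrium in 4 of 4 animals at 2.76 ± 0.45 (SE), with an adjusted p of 0.232 in limma. CD68, a lysosomal protein of the lineage, had ratios of 1.95, -0.13, 1.37 and 2.30. Both LYZ probes were not well above background in any channel. CYBB, another marker of the list, had ratios of -1.17, -1.38, -2.18 and 0.75. HBEGF was lower in endometrial cells also in animals 3 and 4, where the median of these markers was higher. The part of monocytes and macrophages in the HBEGF level was not tested.

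VEGFA, the main angiogenic cytokine, did not move in 1 direction. Its levels were 11.01, 9.39, 10.94 and 9.79 in endometrial cells and 11.64, 9.47, 10.59 and 9.02 in blood cells of animals 1 to 4. Animals 1 and 3 were above animals 2 and 4 in both tissues. The log2 ratios were -0.63, -0.08, 0.35 and 0.77, with a mean of 0.10 ± 0.30 (SE) and an adjusted p of 0.910 in limma. The 95% interval ran from 0.640-fold to 1.80-fold. Pattern likeness was highest for TPM4, a tropomyosin, at a Pearson r of 0.964, IFIT5 at 0.952 and BOLA-DMA, a chaperone of peptide loading, at 0.949.

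VEGFB, which acts through FLT1 and in lipid uptake by endothelium, was dim and nearly level. Endometrial levels were 7.29, 7.10, 8.02 and 7.01, blood levels were 6.67, 7.27, 7.64 and 6.72, and the ranges overlapped. The mean log2 ratio was 0.28 ± 0.23 (SE), from 0.62, -0.16, 0.38 and 0.29 in animals 1 to 4, with a 95% interval of 0.813-fold to 1.81-fold and an adjusted p of 0.588 in limma. In limma on these values the intervals of VEGFA and VEGFB both lay within 2-fold in either direction, which depends on the processing. With the authors' values the log2 ratios had larger errors, at 0.11 ± 0.48 (SE) for VEGFA and 0.60 ± 0.49 (SE) for VEGFB. A change of 2-fold is thus not excluded. Closest to VEGFB in pattern were LRRC42 at a Pearson r of 0.923, MYRF at 0.910 and LMCD1, a LIM domain protein, at 0.910.

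FGF1, acidic fibroblast growth factor, split the animals into pairs. Levels were 9.49, 8.27, 8.82 and 8.91 in endometrial cells and 8.91, 9.86, 9.63 and 8.42 in blood cells of animals 1 to 4. Animals 1 and 4 were higher in endometrium and animals 2 and 3 in blood. The log2 ratios of 0.58, -1.58, -0.81 and 0.48 had a mean of -0.33 ± 0.44 (SE) and an adjusted p of 0.755 in limma. CCR6, a chemokine receptor of lymphocytes, was the gene most like FGF1, at a Pearson r of 0.939, before H2BC21, a histone gene, at 0.879 and TXNIP, the thioredoxin-interacting protein, at 0.878.

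FGF2, basic fibroblast growth factor, was at the bottom of the scale. It was well above background in 2 of the 8 endometrial and 0 of the 8 blood channels. Levels were 6.22, 5.998, 6.13 and 6.01 in endometrial cells and 6.05, 6.02, 5.94 and 6.02 in blood cells, and no fold change can be read from them.

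The pathway around the growth factors was also without a called probe in any of its 7 lists. In the list of other VEGF and angiopoietin ligands, which also holds angiogenin, a member of neither family, 7 of 9 probes were tested. Their median log2 ratio, with angiogenin included, was 1.48. Angiogenin, ANG, a secreted ribonuclease, had 2 probes, both higher in endometrium in 4 of 4 animals. The brighter had log2 ratios of 4.22, 1.77, 4.54 and 6.42, with a mean of 4.24 ± 0.74 (SE) and an adjusted p of 0.242 in limma, and the other had a mean of 1.84. ANGPTL2, an angiopoietin-like protein, had ratios of 5.06, 0.94, 4.10 and -0.08, with a mean of 2.51 and an adjusted p of 0.309 in limma. VEGFC, the lymphatic ligand, had ratios of 2.79, -0.03, 2.16 and -0.04, so that it was above 0 in animals 1 and 3 only. Placental growth factor, PGF, was at 2.98 in animal 1 and between -0.04 and 0.18 in the others.

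Few of the other PDGF, FGF, EGF and HGF family ligands were bright enough to measure. Of 10 probes, 5 were tested and 0 were called at the adjusted or the unadjusted threshold, with a median log2 ratio of -0.16. Amphiregulin, AREG, which shares the EGF receptor with HBEGF, had ratios of -3.62, -0.11, 1.73 and 0.13. Hepatocyte growth factor, HGF, was above 0 in 4 of 4 animals at 0.93, 0.05, 0.05 and 1.39. The EGF receptor itself was well above background in 2 of the 8 endometrial and 0 of the 8 blood channels and was not tested, and FGFR4 and ERBB4 were not above background in any.

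Of the receptors and coreceptors, 12 of 16 probes were tested, with a median log2 ratio of 0.61. The highest was FGFR1, a receptor of both FGF1 and FGF2, with log2 ratios of 4.31, -0.61, 5.36 and 1.73, a mean of 2.70 ± 1.02 (SE) and an adjusted p of 0.311 in limma. Like CTGF, FGFR1 was above 0 in animals 1, 3 and 4 and below 0 in animal 2. CD9, a tetraspanin that binds membrane-bound HBEGF, was higher in endometrium in 4 of 4 animals, at 0.56, 0.56, 4.39 and 1.68. KDR, the main receptor of VEGFA, had ratios of 1.25, -0.05, 2.92 and -0.02 and was in this list and in that of endothelium.

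Inhibitors of angiogenesis had a median log2 ratio of 0.50 over 10 tested probes. SPRY2, which dampens receptor tyrosine kinase signaling, had a ratio above 0 in 4 of 4 animals and a mean of 2.00 ± 0.56 (SE) and an adjusted p of 0.262 in limma. Thrombospondin 1, THBS1, ranged from -5.98 in animal 1 to 2.13 in animal 3. In the list of hypoxia-inducible factor subunits and targets, 17 probes were tested and the median log2 ratio was 0.08, close to that of all tested probes. The oxygen-regulated subunits had mean ratios of opposite sign. EPAS1 had ratios of 1.89, 2.58, 2.20 and 0.23 with a mean of 1.73 ± 0.43 (SE), and HIF1A had ratios of -1.38, -0.93, -0.31 and -0.40 with a mean of -0.76 ± 0.27 (SE), at adjusted p of 0.262 and 0.297 in limma. Adrenomedullin, ADM, a vasodilator peptide, was higher in animals 2 to 4 with a mean of 2.20 and an adjusted p of 0.280 in limma.

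**Figure D4:**
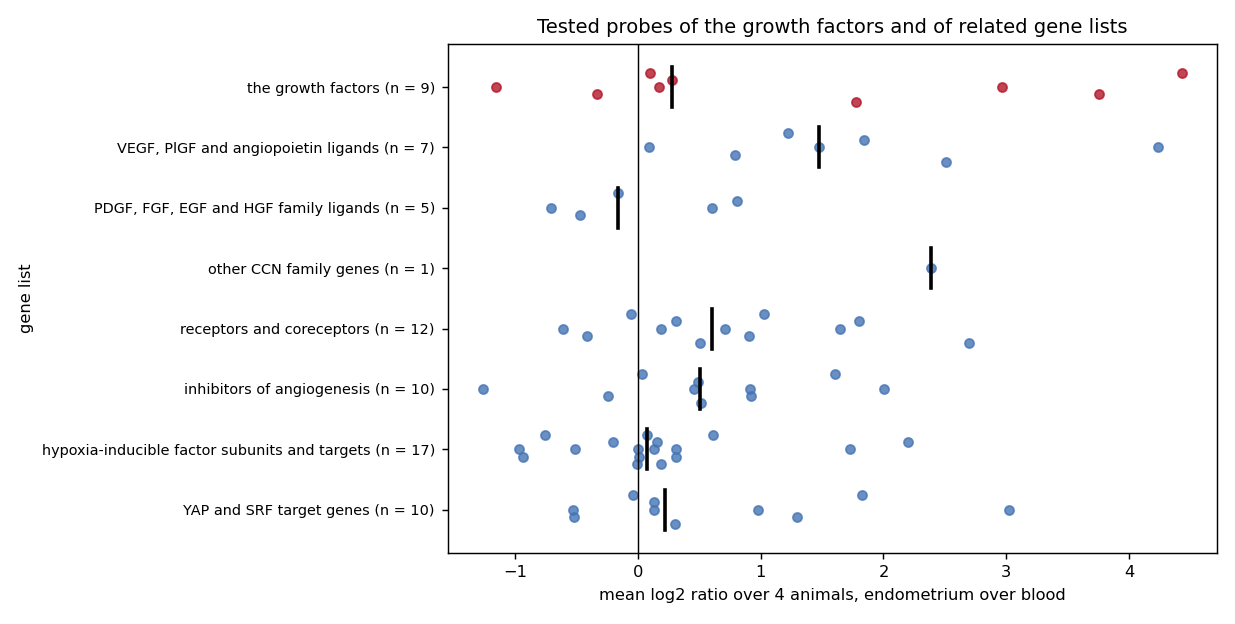
Mean log2 ratio of endometrium over blood over 4 animals (horizontal axis) for each tested probe of the growth factors (red) and of 7 related gene lists (blue), with a black bar at the median of each list. Medians ran from -0.16 for the other PDGF, FGF, EGF and HGF ligands to 2.38 for the single tested CCN probe, and that of the growth factors was 0.28.

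Handling of the cells differed between the tissues, since only endometrium was dispersed with enzyme, and this cannot be told apart from tissue. Immediate early genes, which respond to dissociation, had a median log2 ratio of 0.63, 1.07, 1.50 and 0.57 in animals 1 to 4, and 6 of 11 were above 0 in 4 of 4 animals. FOS had ratios of 2.91, 2.72, 2.19 and 0.23 and JUN had 3.07, 1.07, 2.71 and 1.32, and 0 of the 11 were called. In animal 2 FOS was at 2.72 while CTGF was at -0.38. For T and natural killer cells the list median was 1.43, 1.35, 0.43 and 0.19, with 0 of 8 tested probes called. For smooth muscle and pericytes it was 1.15, -0.04, 0.76 and 0.03, with 0 of 3 called, and RGS5 was not well above background in any endometrial channel. The part of these cells and genes in the growth factor levels was not tested.

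The authors' log2 values gave the same direction as the intensities for each of the 9 tested growth factors. Both come from the same scans, and the files were assigned by matching these values. The shared direction is therefore no independent support. Their mean log2 ratio was 5.30 for CTGF, 4.25 for CYR61, 2.12 for PDGFB, 0.19 for PDGFA, 0.11 for VEGFA, 0.60 for VEGFB, -0.37 for FGF1 and -1.26 for HBEGF, none of them called. These values shift the median of all tested probes to -0.14 from -0.02. The value table was read by its own labels. Direction in the intensities rests on how the scanner files were assigned. Those attached to technical replicates 1 and 2 of an animal were exchanged, because each of the 16 columns of the value table equaled the file so exchanged at 100% of the probes. Read as attached, the ratio turns in the 3 dye-swapped animals, and the means of CTGF, CYR61, ESM1, PDGFB, PDGFA and VEGFB fall below 0. Animal 3 had no dye swap and is the same in either reading. Its probe ratios correlated with those of animals 1, 2 and 4 at a Pearson r across probes of 0.369, 0.449 and 0.359 as read here.

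**Figure D5:**
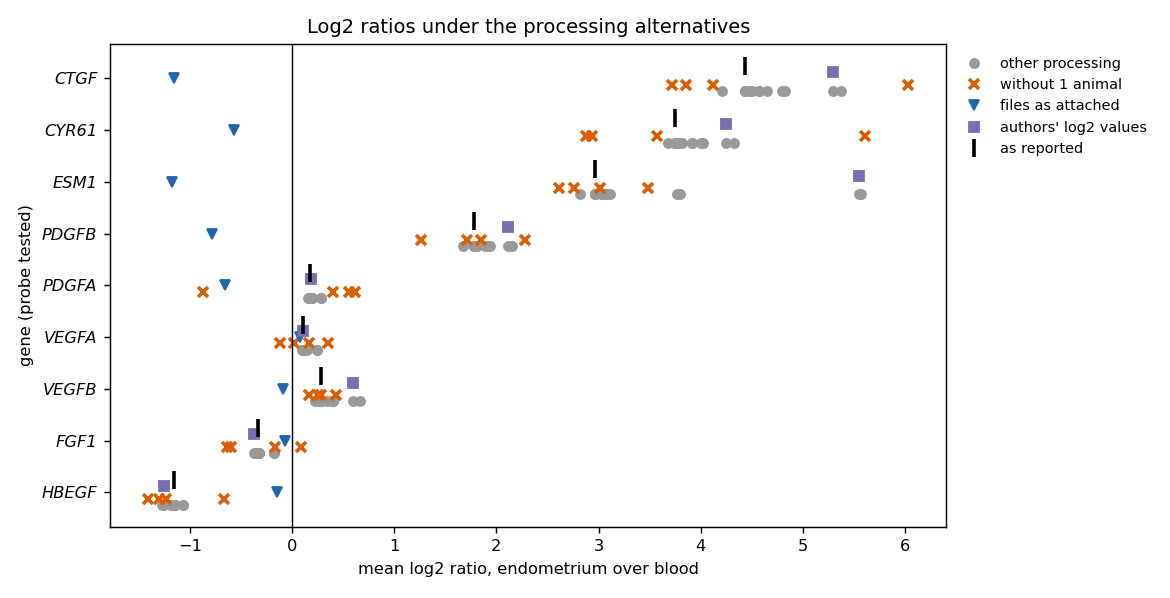
Mean log2 ratio of endometrium over blood (horizontal axis) of the 9 tested growth factors as reported (black tick), without 1 animal (crosses), with the authors' values (squares), with the files as attached (triangles) and with other processing (grey points). Apart from the files as attached, CTGF, CYR61, ESM1, PDGFB and VEGFB stayed above 0 and HBEGF stayed below 0.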

How the data were processed

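Two-colour Agilent arrays of CD14+ cells from endometrium and blood of 4 cows (16 samples, 8 arrays) were analysed. Per the labels, 10 to 50 ng of RNA was amplified before labeling. The authors deposited scanner files with the median intensity of each spot and a processed intensity (Feature Extraction 9.5 per the labels, 10.5.1.1 per the file headers). The authors also deposited log2 values, normalized by lowess and by quantiles over channels. The 2 files of an array were identical, and those attached to technical replicates 1 and 2 of an animal were exchanged, after which the log2 values agreed within 0.001 at 100% of probes (0.061 to 0.689% as attached). This reading was chosen after the values were seen.

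Median intensities were corrected by normexp (offset 50) and normalized by loess and quantiles with limma 3.58.1 in R 4.3.3, leaving out control spots and outliers (3 to 20 spots an array). Spots of a probe were averaged. The log2 ratios of 4 animals were tested with lmFit and eBayes over 16653 probes with Benjamini-Hochberg adjustment. The spread between animals is what p-values measure. Tissues are paired by the animal in the labels (r of their deviations 0.618, 0.364, 0.209 and 0.465). The fit was tested on simulated data. No spot was saturated, 65.2 to 82.9% of spots in a channel were well above background, and the number of animals, 4 with 2 arrays each, limits precision.

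Genes named are the growth factors and genes drawn from the called probes and the 3 highest and 3 lowest log2 ratios of each list, and from the 3 most similar genes of each growth factor, not all of which appear in the text. COL1A2, CDH5, PECAM1, KDR, WISP1, WISP3, CD68, PAG3 and EGFR are named beyond this as defining markers or family members. Also named beyond it are PF4, RGS5, LYZ, FGFR4, ERBB4, GCM1 and dim probes of PAG17 and ITGA2B, none of them tested. Growth factors and lists were chosen with earlier results of these data known. Symbols came from a RefSeq gene table (ARS-UCD2.0). Alternatives changed background, normalization, intensities, filter, pairing, dye and slide, technical replicate, animals, test, threshold and file assignment, and the processed intensity without quantiles was added after the data were seen. Quantitative PCR and flow cytometry were not analysed here.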

Additional observations from a re-analysis of the deposited data

Results flagged for a closer look

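Groups of 4 values of each growth factor were examined for a value far from the other 3, over 30 groups (endometrial levels, blood levels and log2 ratios of 10 genes), and 2 were found. About 1 in 20 such groups stands out by chance, which is 1.5 of 30. The log2 ratio of CTGF in animal 2 was -0.38, while the other 3 animals lay between 5.37 and 6.56, and the gap took 0.8291 of the whole range, barely over the limit for 4 values. The log2 ratio of PDGFA in animal 1 was 3.32, while the other 3 lay between -1.15 and -0.49, a gap of 0.853 of the range.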

How the results depend on the processing

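As reported, 0 of 9 growth factors were called. The count was 1 (ESM1) with the processed signal and with the authors' values, where 1.35% of all tested probes were called, or 1.03% without quantiles. It was 3 (CTGF, ESM1 and PDGFB) in the fit to 8 arrays with a dye term and the animal as a random block, beside 4.76% of all tested probes. It was 1 (ESM1) with a slide term added, beside 1.67%, and 5 by unadjusted p in limma, beside 1729 of 16653 probes. Without 1 animal in turn it was 0 each time. Over all probes the count of calls ran from 0 to 792 at the adjusted threshold, beside 11 as reported, and was 0 without any 1 of the animals. Without the pairing of tissues (no replicate block), 0 of 9 growth factors and 4 probes in all were called.

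With the files as attached, the mean log2 ratio turned to -1.15 for CTGF, -0.57 for CYR61, -1.18 for ESM1, -0.79 for PDGFB, -0.66 for PDGFA and -0.092 for VEGFB. Leaving out an animal turned PDGFA to -0.87 (animal 1, range over the 4 animals -0.87 to 0.62), VEGFA to -0.12 (animal 4, -0.12 to 0.35) and FGF1 to 0.084 (animal 2, -0.64 to 0.084). The other 171 of 180 values kept their direction, and the causes of the turns were not tested. Not all of these values could have turned. The alternatives in filter, pairing and the methods' analysis of variance leave the mean ratio as reported, at 4.43 for CTGF. Others repeat each other, as the processed signal with quantiles and the authors' values do, at 5.30 for CTGF. The offset of 50 narrows ratios of dim probes, as for ESM1, whose log2 ratio of 2.97 was 3.80 at an offset of 16. FGF2 was too dim to measure.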
